A study of Mus musculus with 11 samples.

Results

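Keratins and bile duct genes were followed through the livers of mice given a miR-30c mimic. The set was a list of 9 gene symbols, Krt7, Krt8, Krt18, Krt19, Krt23, Epcam, Sox9, Cd24a and Ezr. It was drawn up from results of these same data, in which Krt23 was low and other duct genes were high after the mimic. Of the 13636 genes in the table, 6 were members: Krt8, Krt18, Krt23, Sox9, Cd24a and Ezr. Krt7, Krt19 and Epcam are not analysed here. The mimic's differences from both control groups therefore chose the members, and for the members they are given as descriptions with no test.

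Keratins are the proteins of the intermediate filaments of epithelial cells, and a filament needs one type I and one type II keratin. Hepatocytes make the pair of keratin 8 (type II) and keratin 18 (type I), and the cells that line the bile ducts, the cholangiocytes, add keratin 7 and keratin 19. SOX9 is a transcription factor of duct cells and of liver progenitors, CD24 is a small glycoprotein anchored in the cell surface, and ezrin ties the membrane to the actin beneath it. Keratin 23 is a type I keratin known from reacting bile ducts in injured liver.

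All mice were male C57BL/6J, a common inbred laboratory strain, which ate a Western diet, begun when they were 8 weeks old and eaten for a month before treatment. Over 6 weeks they were injected with a mimic of the microRNA miR-30c (4 libraries), with a scramble oligomer (3 libraries) or with PBS (4 libraries), a buffered salt solution. The labels give rising doses of mimic and scramble, listed as 2.5 mg/kg, then 5.0 mg/kg and then 7.5 mg/kg. Whole liver was sequenced, and the labels number the libraries without saying that each came from its own mouse, so the spread between libraries may in part be technical.

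The libraries held 39705157 to 60399018 counted reads in mimic livers, 74519792 to 88869950 in scramble livers and 62848115 to 101380174 in PBS livers. Values are scaled CPM, reads divided by an effective library size as the authors deposited them, and log2 changes are differences of log2(value + 1). The name given to the deposited values, CPM1in3, reads as a filter for a CPM of 1 in 3 libraries. If so, a gene under 1 in all controls is in the table only through the mimic libraries and can show no fall. Cd22 reached 1 only in mimic replicate 2 (1.32) and PBS replicate 2 (1.49), so such a filter was not set on the scaled values. On CPM by library total it would favour mimic replicates 1 and 4 more. Their scaled values summed to 635097 and 605536, against 983779 or more in each control library. Mimic replicates 1 and 4 stood apart from replicates 2 and 3. The 19 major urinary protein rows took 12.5% and 11.6% of their reads, against 34.8% and 41.3% in mimic replicates 2 and 3 and 37.9% to 52.9% in the 7 control libraries. The serum amyloid A rows, of acute-phase proteins, took 2.61% and 2.05% in mimic replicates 1 and 4, against 0.699% and 0.720% in mimic replicates 2 and 3 and 0.0101% to 0.0211% in the controls. For each member the 2 pairs of mimic libraries are therefore also set against the scramble mean apart.

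The name of bile duct genes could be checked only in part, since the defining duct markers Krt7, Krt19 and Epcam are not analysed here. Krt8 and Krt18 are also the keratins of hepatocytes. The 6 measured genes differed widely in level. Per kilobase of merged exons, Krt18 averaged 74.5 ± 13.8 scaled CPM in mimic livers, 46.2 ± 1.79 in scramble livers and 48.1 ± 10.4 in PBS livers (SD, n = 4, 3 and 4). Krt8 came next, with 45.4 ± 8.23, 33.6 ± 3.67 and 31.0 ± 4.0 on the same per-kilobase scale. In both control groups Krt23 was the third, at 3.55 ± 0.799 (scramble) and 4.60 ± 1.52 (PBS), and in the mimic group it was the lowest of the 6, at 0.133 ± 0.0324. Ezr, Cd24a and Sox9 were lower than Krt23 in the controls, at 0.578 ± 0.151, 0.351 ± 0.145 and 0.116 ± 0.0597 per kilobase in the PBS group. In mimic livers Ezr, Cd24a and Sox9 had 1.22 ± 0.190, 0.805 ± 0.0959 and 0.251 ± 0.0225 per kilobase. Among neighbours in the PBS order, only the mean ± SD ranges of Ezr and Cd24a overlapped. In bulk liver RNA, fewer cells of a type and less RNA per cell cannot be told apart.

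Krt8 and Krt18, the keratin pair of hepatocytes, were both higher in the mimic livers. Krt8 (chromosome 15, 101996698 to 102004482, minus strand, GRCm38, 9 merged exons) had 109, 76.9, 75.0 and 94.3 scaled CPM in the 4 mimic libraries, against 65.8, 73.0 and 58.6 in the scramble libraries and 66.9, 64.5, 61.7 and 49.3 in the PBS libraries. The groups did not overlap, but the margin was narrow, with mimic replicate 3 at 75.0 and scramble replicate 2 at 73.0. The means were 88.9 ± 16.1, 65.8 ± 7.18 and 60.6 ± 7.82 (SD, n = 4, 3 and 4), and the log2 change was 0.42 ± 0.15 (SE) relative to scramble and 0.54 ± 0.13 relative to PBS. The Krt8 difference was larger in mimic replicates 1 and 4. Their mean was 1.55 times that of the scramble group, while the mean of mimic replicates 2 and 3 was 1.15 times it, a log2 change of 0.21.

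Krt18 (chromosome 15, 102028180 to 102032027, plus strand, 7 merged exons) had 130, 90.1, 118 and 90.7 scaled CPM in the mimic libraries. The scramble libraries had 63.5, 67.9 and 67.9, and the PBS libraries 76.6, 85.2, 63.3 and 51.3. Every mimic library was above every control library, and the 3 scramble libraries lay close together. The log2 change was 0.66 ± 0.17 (SE) relative to scramble and 0.63 ± 0.16 relative to PBS. Unlike Krt8, the difference was much the same in both pairs of mimic libraries, 1.66 times the scramble mean in replicates 1 and 4 and 1.57 times in replicates 2 and 3.

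The balance of the pair was read as Krt8 over Krt18 per base of merged exons, a ratio that no library scaling can move. It was 0.618, 0.626, 0.467 and 0.763 in the mimic libraries, against 0.761, 0.788 and 0.634 in the scramble libraries and 0.640, 0.555, 0.716 and 0.705 in the PBS libraries. The ranges of the 3 groups overlapped. Scramble and PBS, the comparison the choice of genes did not use, had means of 0.728 ± 0.0826 and 0.654 ± 0.0738 (SD, n = 3 and 4), a difference of 0.0737 with a two-sided exact permutation p = 0.286 (also 0.286 after Benjamini-Hochberg adjustment over 2 comparisons of this ratio). The smallest p this design allows is 0.0571.

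**Figure D1:**
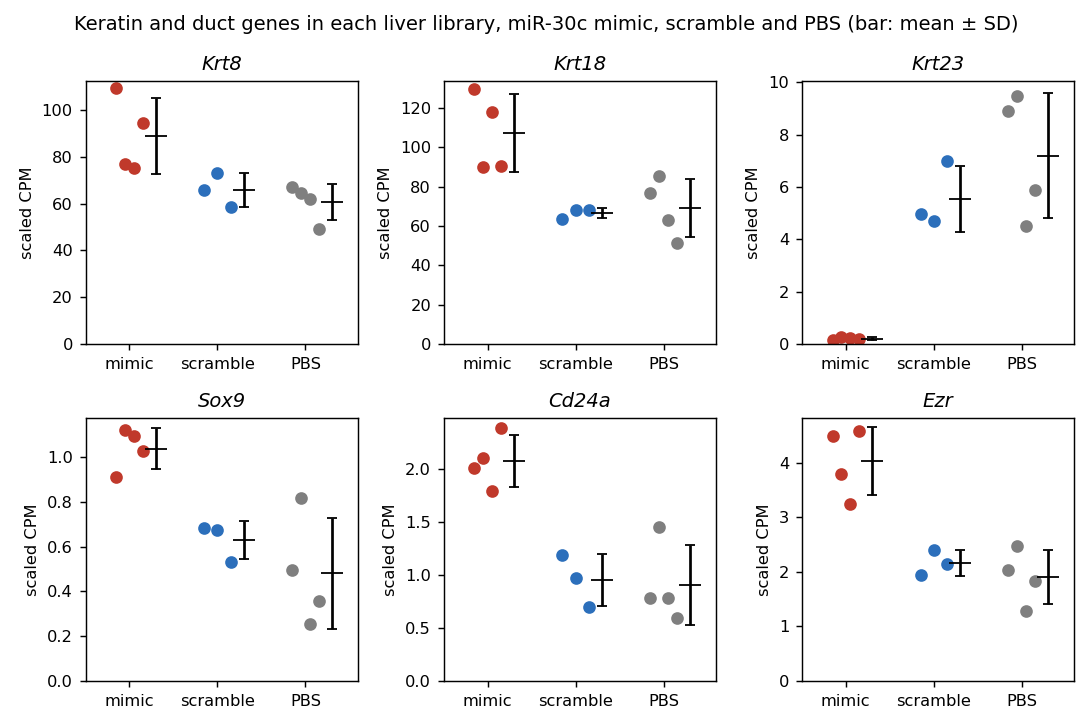
Scaled CPM (linear axes from 0) of the 6 measured genes in each library, in mimic, scramble and PBS order, one point per library, with bars at the mean ± SD. Krt23 lies between 0.144 and 0.257 in the 4 mimic libraries and between 4.53 and 9.48 in the 7 controls, while the other 5 genes are higher in each mimic library than in any control.

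The Krt8 values ran in step with those of another row of the table. Over the 11 libraries Nlrp4e, a gene of the NLR family, ran at 50.7% to 55.7% of the Krt8 value (53.1% ± 1.76, SD), from 25.7 to 55.8 scaled CPM. Nlrp4e lies on chromosome 7 at 23301192 to 23362277, plus strand, and the processed pseudogene Krt8-ps lies inside it, at 23357125 to 23358069 on the same strand and in an intron by GENCODE M21. Of the 1911 words of 48 bases, one read length, in the longest Krt8 transcript, 522 (27.3%) also occur in Krt8-ps. A further 55 words (2.88%) occur in Gm36026, a non-coding RNA gene on the opposite strand that overlaps the Krt8 exons by 101 bases. How the authors' counting treated such reads is not given in the sources used here, so the levels of Krt8 and Nlrp4e are uncertain. The part of shared reads in either was not tested. For Krt18, Cd24a and Ezr 1.08%, 4.18% and 0.257% of the words were shared with another gene, and for Krt23 and Sox9 none were (0%).

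**Figure D2:**
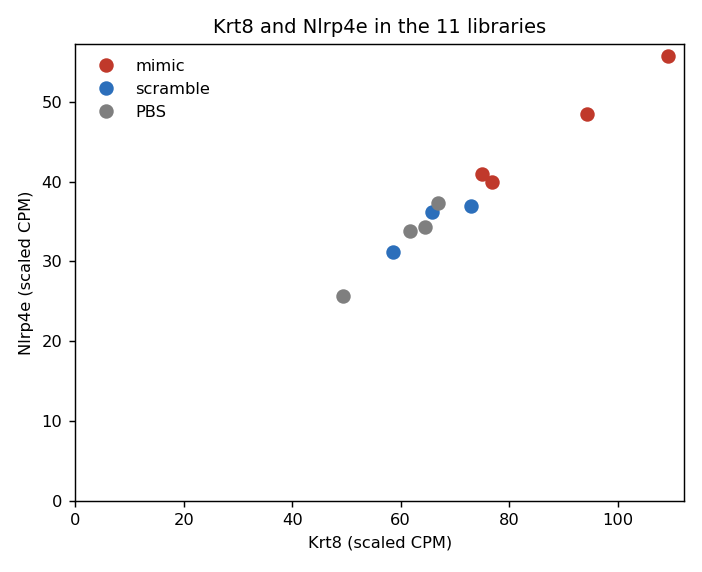
Nlrp4e against Krt8 in scaled CPM (linear axes from 0), one point per library coloured by group. The 11 points lie close to a line through the origin, with Nlrp4e at 50.7% to 55.7% of Krt8.

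Krt23 (chromosome 11, 99477974 to 99493137, minus strand, 8 merged exons) went the other way and by far the most of the 6. It had 0.144, 0.257, 0.239 and 0.194 scaled CPM in the mimic libraries, against 4.95, 4.71 and 6.99 in the scramble libraries and 8.91, 9.48, 4.53 and 5.87 in the PBS libraries. The mimic values rest on 9, 17, 14 and 17 reads, and the controls on 334 to 448 (scramble) and 305 to 591 (PBS). The groups are far apart, and both pairs of mimic libraries lie far below the controls. The mimic mean was 0.209 ± 0.0507, against 5.55 ± 1.25 (scramble) and 7.20 ± 2.38 (PBS) (SD, n = 4, 3 and 4). By the ratio of means that is 26.6-fold lower than scramble and 34.5-fold lower than PBS. Mimic replicates 1 and 4 averaged 0.169 and replicates 2 and 3 averaged 0.248, which is 22.4-fold below the scramble mean. On the log2(value + 1) scale, which compresses such low values, the change was -2.42 ± 0.20 (SE) and -2.71 ± 0.19. Among the 12592 genes with a scramble mean of at least 1, Krt23 had the second lowest ratio of mimic to scramble means and the lowest ratio of mimic to PBS means. Krt23 was chosen with this fall known, so the ranks are a description only.

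Promoters are shown for the keratin pair that was higher and for the keratin that was lower, from RefSeq on GRCm38.p6, each 250 bases before and 50 after the annotated start. Capitals mark matches on either strand to a TATA box (TATAAA), a GC box (GGGCGG), an AP-1 site (TGANTCA), a STAT site (TTCNNNGAA) or a nuclear receptor half-site (AGGTCA), where N is any base.
Krt8 (chr15:102004293-102004592, minus strand): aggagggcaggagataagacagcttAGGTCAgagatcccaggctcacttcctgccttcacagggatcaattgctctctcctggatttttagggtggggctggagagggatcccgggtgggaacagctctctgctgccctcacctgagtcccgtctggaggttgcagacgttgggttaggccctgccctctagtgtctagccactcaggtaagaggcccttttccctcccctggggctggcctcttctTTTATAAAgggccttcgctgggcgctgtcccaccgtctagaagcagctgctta
Krt18 (chr15:102027966-102028265, plus strand): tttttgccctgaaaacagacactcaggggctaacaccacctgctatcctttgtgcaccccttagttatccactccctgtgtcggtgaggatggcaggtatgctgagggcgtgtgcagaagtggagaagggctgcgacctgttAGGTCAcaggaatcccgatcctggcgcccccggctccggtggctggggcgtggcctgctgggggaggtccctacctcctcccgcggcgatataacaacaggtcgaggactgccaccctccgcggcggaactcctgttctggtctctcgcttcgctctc
Krt23 (chr11:99493071-99493370, minus strand): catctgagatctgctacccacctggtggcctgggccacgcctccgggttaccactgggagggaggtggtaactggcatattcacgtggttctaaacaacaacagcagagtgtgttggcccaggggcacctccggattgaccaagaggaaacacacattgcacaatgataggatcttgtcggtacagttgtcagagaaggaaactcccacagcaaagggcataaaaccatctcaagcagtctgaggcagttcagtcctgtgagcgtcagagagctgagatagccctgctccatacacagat
Krt8 and Krt18 each hold 1 half-site, and Krt8 has overlapping matches to the TATA letters, 2 counting both strands. These begin at -3 and -1 from the annotated start and so lie across it. Whether they work as a TATA box was not tested. Krt23 holds 0 matches to any of the 5, and the other motifs have 0 matches in Krt8 and Krt18. Of all 32851 promoters in the table, 16.3% hold the half-site letters, 13.6% those of the TATA box, 35.7% of the GC box, 7.81% of AP-1 and 8.30% of STAT. The GC content was 58.0%, 61.3% and 53.0% in Krt8, Krt18 and Krt23.

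Sox9 (chromosome 11, 112782224 to 112787760, plus strand, 3 merged exons) was low in every group and higher in the mimic livers. It had 0.912, 1.12, 1.09 and 1.03 scaled CPM in the mimic libraries, against 0.682, 0.673 and 0.530 (scramble) and 0.498, 0.819, 0.252 and 0.355 (PBS). The 4 mimic libraries lay close together and above all 7 controls, while the PBS libraries spread 3.25-fold from lowest to highest. All 7 controls were under 1, so under the CPM1in3 filter Sox9 is in the table only through its mimic values. Nothing is read from its separation. The counts behind these values were 57 to 90 reads in mimic livers, 34 to 51 in scramble livers and 17 to 44 in PBS livers. By the ratio of means Sox9 was 1.65 times scramble and 2.16 times PBS, with a log2(value + 1) change of 0.32 ± 0.12 (SE) and 0.47 ± 0.11. Mimic replicates 1 and 4 averaged 1.54 times the scramble mean and replicates 2 and 3 averaged 1.76 times, the opposite order to that of Krt8.

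Among the 6 genes, Sox9 was the one whose 3′ UTR carries a match to the seed of miR-30c. The mature strand and the site are shown because a microRNA binds its targets by the seed, bases 2 to 8, which are in capitals in the first line, with the complementary 7 bases in capitals in the second.
miR-30c-5p (RefSeq, GRCm38.p6, chr1:23291714-23291736, plus strand, and chr4:120769584-120769606, minus strand): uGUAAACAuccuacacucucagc
Sox9 site (chr11:112787709-112787737, plus strand, GRCm38): ttgtatattatTGTTTACaataaatatac
The site begins at base 2210 of a 2250-base 3′ UTR and is followed by the A that makes the 8-base form. The longest annotated 3′ UTRs of Krt8, Krt18, Krt23, Cd24a and Ezr, of 242, 66, 223, 1500 and 1262 bases, hold 0 matches. Of 11462 genes in the table with an annotated 3′ UTR, 16.5% hold the 7-base match. The match is a description of letters, and no binding was measured.

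Cd24a (chromosome 10, 43578284 to 43584265, plus strand) had 2.02, 2.10, 1.80 and 2.39 scaled CPM in the mimic libraries. It had 1.19, 0.977 and 0.702 in the scramble libraries and 0.784, 1.45, 0.786 and 0.597 in the PBS libraries. All 4 mimic libraries were above all controls, the nearest control being PBS replicate 2. Only scramble replicate 1 and PBS replicate 2 exceeded 1 among the controls, so Cd24a too passed the CPM1in3 filter with its mimic values. The ratio of means was 2.17 against scramble and 2.30 against PBS, and the log2 change was 0.66 ± 0.14 (SE) and 0.71 ± 0.13. Mimic replicates 1 and 4 averaged 2.31 times the scramble mean and replicates 2 and 3 averaged 2.04 times. The mimic values rest on 105 to 210 reads.

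Ezr (chromosome 17, 6738041 to 6782784, minus strand) had 4.49, 3.80, 3.25 and 4.57 scaled CPM in the mimic libraries. The scramble libraries had 1.94, 2.40 and 2.14, and the PBS libraries 2.04, 2.48, 1.28 and 1.82. Again no control reached the lowest mimic library, and mimic replicates 1 and 4 were the highest, at a mean of 2.10 times scramble against 1.63 times in replicates 2 and 3. The log2 change was 0.66 ± 0.14 (SE) relative to scramble and 0.80 ± 0.13 relative to PBS. The comparisons with scramble and with PBS share the mimic libraries.

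Across the members, 5 of 6 were higher and 1 of 6 lower in every mimic library than in every control library, which over all genes was so for 14.4% (higher) and 11.5% (lower). The members were chosen on this difference, so nothing is read from their count. By limma at an adjusted p of 0.05, 32% of all genes were called in mimic against scramble and 37.1% in mimic against PBS. The median log2 change of the 6 against scramble was 0.54, which rests on the same choice, so nothing is read from it either. The median of all genes was 0.00. When reads were divided by library totals alone, the median of all genes moved to 0.49 and Krt23 was still lower, at -2.18, while Krt8, Krt18, Sox9, Cd24a and Ezr had log2 changes of 1.0, 1.25, 0.60, 1.02 and 1.12.

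**Figure D3:**
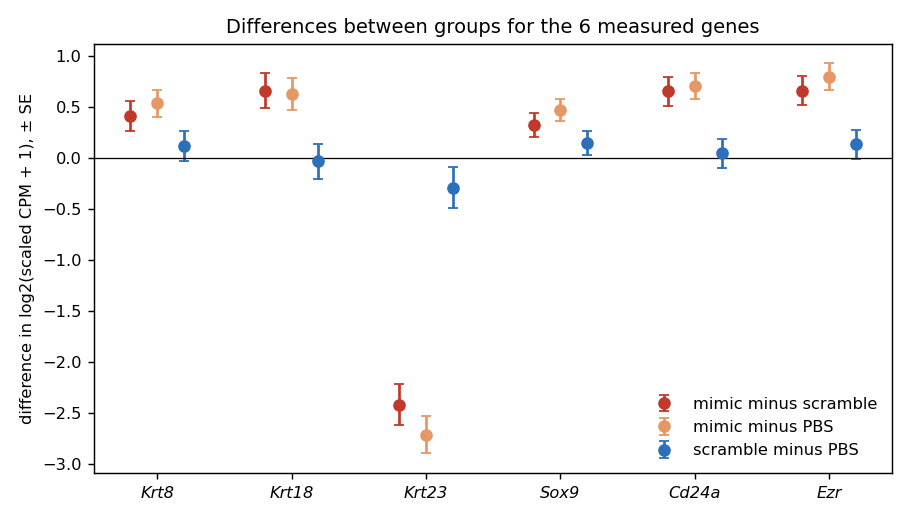
Differences in log2(scaled CPM + 1) between group means for the 6 genes, ± SE from the fit over all genes, for mimic minus scramble, mimic minus PBS and scramble minus PBS. Krt23 stands at -2.42 and -2.71 in the mimic comparisons, and the scramble minus PBS points all lie between -0.29 and 0.15.

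Scramble against PBS asks what injection of an oligomer does without the miR-30c sequence, and it is the test left for the members. Tested by limma across the table, 0 of 6 members and 0% of all genes were called at an adjusted p of 0.05. At an unadjusted p below 0.05 limma counted 0 members and 434 of the 13636 genes. Over all genes the edgeR quasi-likelihood test called 0 and DESeq2 called 14. Krt23 averaged 5.55 ± 1.25 in the scramble group and 7.20 ± 2.38 in the PBS group (SD, n = 3 and 4), and Sox9 averaged 0.629 ± 0.0852 and 0.481 ± 0.247. The Krt23 log2 change was -0.29 with a 95% interval of -0.73 to 0.15. The intervals of the other 5 were -0.20 to 0.44 for Krt8, -0.41 to 0.34 for Krt18, -0.11 to 0.41 for Sox9, -0.26 to 0.36 for Cd24a and -0.17 to 0.44 for Ezr. For each of the 6 the scramble and PBS libraries overlapped, where 2.33% of all genes had every scramble library above every PBS library and 2.39% had every one below. PBS replicate 2 was the highest PBS library for Krt18, Krt23, Sox9, Cd24a and Ezr, but not for Krt8.

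The members' pathways were read through other genes, in mimic against scramble by limma with adjustment over all 13636 genes. These genes were not used to choose the 6, but their lists were drawn up with earlier results of these data known. The calls are therefore not independent support. In that comparison 17.3% of all genes were called higher and 14.7% lower. With library totals in place of the deposited scaling, 5498 of the 13636 genes were called higher and 110 lower, with a median of 0.49. The counts of each list with library totals are to be set beside these. Keratins other than the 3 described above are not analysed here.

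Of the other bile duct genes, 17 of the 23 measured were not called. Over all genes 32% were called, 17.3% higher and 14.7% lower, so the count of this list is near that share. Of 43 listed, 23 were measured, 4 rose and 2 fell, and their median log2 change was 0.00, that of all genes. With library totals 9 were called higher and 0 lower, with a median of 0.52, where that of all genes was 0.49. Spp1, which encodes the matrix protein osteopontin, had 38.9, 34.3, 41.4 and 35.5 scaled CPM in the mimic libraries, against 20.1, 22.1 and 12.9 in the scramble libraries, a log2 change of 1.02 ± 0.19 (SE; adjusted p = 0.0023, limma). Itga6, an integrin of epithelial basement membranes, averaged 2.30 ± 0.510 in the mimic group and 0.760 ± 0.107 in the scramble group (SD, n = 4 and 3; limma adjusted p = 0.00055). It was under 1 in every control, so under the CPM1in3 filter it could only show a rise. The epithelial cadherin gene Cdh1 also rose, by 0.63 on the log2 scale (adjusted p = 0.034), though its groups overlapped and the call was lost, at an adjusted p of 0.067 to 0.12, without mimic replicate 1, 2 or 3 or scramble replicate 1 or 2. Onecut2, a transcription factor of biliary development, averaged 32.1 ± 2.99 and 47.7 ± 4.24 (SD, n = 4 and 3), a log2 change of -0.56 (limma adjusted p = 0.0048) that became 0.01 with library totals. Hhex and Atp1b1, the most abundant that were not called, were at 0.10 and -0.21. The other called genes, named after their values were seen, were Sorbs2, at 0.30, and Wwc1, at -0.52 and at 0.05 with library totals. Both calls were lost without mimic replicate 1 or 3, scramble replicate 2 or PBS replicate 1, and under some other alternatives. The summed level of the 23 was 314 to 344 scaled CPM in mimic livers, 293 to 342 in scramble livers and 276 to 381 in PBS livers, so that the 3 ranges overlapped. Without mimic replicate 1, or without scramble replicate 2, 3 genes of the list were called in place of 6.

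**Figure D4:**
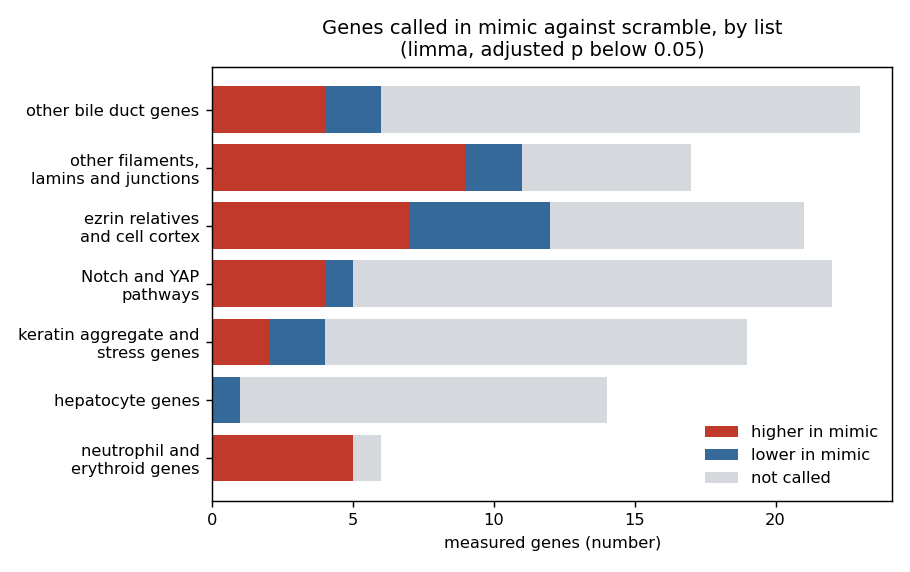
Number of measured genes of each list called higher, called lower or not called in mimic against scramble (limma, adjusted p below 0.05), for lists with 5 or more measured genes. Filament partners have the most called higher (9 of 17), and of the hepatocyte genes 0 of 14 were called higher.

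Of 20 listed genes of other intermediate filaments, lamins and junctions, 17 were measured, 9 rose and 2 fell, with a median log2 change of 0.32. With library totals 9 were called higher and 0 lower, with a median of 0.80. Ppl, which encodes periplakin, a linker of keratin filaments to the membrane, had 14.7, 10.5, 16.7 and 9.60 scaled CPM in the mimic libraries and 2.92, 3.66 and 4.51 in the scramble libraries. Its log2 change was 1.54 ± 0.19 (SE; adjusted p = 0.00022, limma). The lamin genes Lmna and Lmnb1 rose by 0.58 and 0.55 and Tchp, a keratin-binding protein gene, by 0.46. Tchp reached 1 in only 1 control, scramble replicate 3, so it passed the CPM1in3 filter with its mimic values. Vim and Des, filament genes of mesenchymal cells named after their values were seen, rose by 1.68 and 0.78. Vim averaged 18.3 ± 3.09 in the mimic group and 4.96 ± 0.203 in the scramble group (SD, n = 4 and 3). Dsc2 and Dsg2, the genes of the list that fell, were singled out once their values were known and encode cadherins of desmosomes, the junctions that hold keratin filaments. Dsc2 averaged 17.3 ± 2.29 in the mimic group and 27.8 ± 2.27 in the scramble group (SD, n = 4 and 3), a log2 change of -0.66 (limma adjusted p = 0.0055) that was -0.10 and not called with library totals. Dsg2 averaged 43.6 ± 3.54 and 59.4 ± 3.63, a log2 change of -0.44 (limma adjusted p = 0.012) that was 0.14 with library totals and lost its call without scramble replicate 1 (0.055). Jup, which encodes plakoglobin of the same junctions, rose by 0.32, a call lost without scramble replicate 2 or 3 (limma adjusted p = 0.050 and 0.060). Pkp4 and Dsp, both of cell junctions, were the most abundant not called, at -0.23 and -0.28.

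Of 24 listed relatives and partners of ezrin, 21 were measured, 7 rose and 5 fell, with a median log2 change of 0.13. With library totals 10 were called higher and 0 lower, with a median of 0.62. Of the closest relatives, Msn (moesin) had 21.8, 25.0, 22.9 and 23.8 scaled CPM in the mimic libraries and 10.2, 11.8 and 10.6 in the scramble libraries. Its log2 change was 1.04 ± 0.10 (SE; limma adjusted p = 3.9e-05). Rdx (radixin), the relative that hepatocytes are known for, averaged 61.5 ± 3.85 and 79.6 ± 2.86 (SD, n = 4 and 3), a log2 change of -0.37 (limma adjusted p = 0.019) that became 0.21 with library totals. Arhgdia, Stk10, a kinase of ezrin, and Icam1, an adhesion receptor, rose by 1.11, 0.84 and 1.17. Nf2, which encodes merlin, fell by 0.27, and stood at 0.28 with library totals. Rhoa and Actg1, the most abundant not called, were at 0.13 and 0.18, and with library totals both were called higher, at 0.71 and 0.76. Rdx and Nf2 were named after their values were seen. Rdx was not called without scramble replicate 1 or 2 (limma adjusted p = 0.058 and 0.060), nor Nf2 without scramble replicate 3 (0.061). With mimic replicates 2 and 3 alone, 7 genes of the list were called in place of 12.

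Notch and YAP signalling are known to act on Sox9 in the liver. Of 33 listed genes 22 were measured, 4 rose and 1 fell, with a median log2 change of -0.02 that was 0.47 with library totals, where 7 were called higher and 0 lower. Notch3, a receptor of mural and stellate cells, averaged 6.89 ± 3.83 and 1.48 ± 0.289 (SD, n = 4 and 3), a log2 change of 1.55 ± 0.35 (SE; limma adjusted p = 0.0067). Heyl and Ajuba, a Notch target and an inhibitor of the LATS kinases, rose by 0.86 and 0.69. Heyl was under 1 in every control, so under the CPM1in3 filter it could only show a rise. Lats1 fell by 0.45, and was at 0.10 with library totals. Notch2, the receptor of duct development, and Yap1 were not called, at 0.13 and -0.13, and Notch2 was called at 0.69 with library totals.

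Keratin 8 and keratin 18 are known to gather in aggregates with ubiquitin and p62 in injured hepatocytes. Of the 19 genes listed for such aggregates and protein stress, all 19 were measured, 2 rose and 2 fell, with a median log2 change of -0.13 that was 0.46 with library totals, where 5 were called higher and 0 lower. Sqstm1, which encodes p62, averaged 162 ± 12.5 in the mimic group and 129 ± 2.82 in the scramble group (SD, n = 4 and 3; limma adjusted p = 0.029). Cryab, a small heat shock protein gene, rose by 0.57, but was under 1 in every control, so under the CPM1in3 filter it could only show a rise. Fech, of heme synthesis, and Hspa8, a chaperone, fell by 0.50 and 0.47, and both were above 0 with library totals, at 0.08 and 0.11. Ubb, which encodes ubiquitin, was not called, at -0.13. The number called in this list changed with single libraries: 7 genes were called without mimic replicate 3, and 2 without mimic replicate 4, scramble replicate 1 or scramble replicate 2. With any 1 library left out, Cryab stayed at 0.54 to 0.61 and Fech at -0.57 to -0.44. Sqstm1 lost its call without mimic replicate 1 or 4 or any 1 scramble replicate (limma adjusted p = 0.065 to 0.087), and Hspa8 under 15 of the alternatives, with -0.15 in mimic replicates 2 and 3 alone.

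Markers of other cells in the tissue were measured beside the members. Of 15 hepatocyte genes, 14 were measured, 0 rose and 1 fell, Cyp2e1, by 0.69, with a median log2 change of -0.17 that was 0.41 with library totals, where 2 were called higher and 0 lower. Their summed level was 30815 to 36572 scaled CPM in mimic livers, 40809 to 44724 in scramble livers and 39160 to 45284 in PBS livers. That sum, taken on the deposited scaling only, follows mainly its most abundant genes. Alb averaged 12092 in mimic and 17305 in scramble livers, and Cyp2e1 3666 and 5821, so the sum says little of the list as a whole. Alb and Serpina1c were not called, at -0.52 and -0.19. Cyp2e1 was at -0.10 and not called with library totals. Without mimic replicate 2 or 3 or scramble replicate 3, 2 hepatocyte genes were called, without scramble replicate 2 there were 3, and with mimic replicates 2 and 3 alone 0. Of 12 mesothelial markers, cells that also make keratins, 1 was measured, Gpm6a, at -0.23 and not called. Of 9 genes listed for B cells, which also make CD24, 2 were measured and 0 called by limma, Cd22 at 0.28 and Cd74 at 0.24. With library totals Cd22 was called, at 0.55. Among the controls it reached 1 only in PBS replicate 2 (1.49), so it needed mimic values to pass the CPM1in3 filter. The sum of Cd22 and Cd74 was 33.2 to 62.6, 29.8 to 42.2 and 22.2 to 137 in the mimic, scramble and PBS groups. Nearly all of it was Cd74, with group means of 44.8, 37.2 and 57.6, against 0.948, 0.597 and 0.860 for Cd22, so it says little of B cells. Of 12 neutrophil and erythroid genes, which mark further cells that make CD24, 6 were measured, 5 rose and 0 fell. Every control was under 1 scaled CPM for S100a9, S100a8, Ltf and Ngp, so under the CPM1in3 filter these could only show a rise. S100a9, S100a8, Csf3r and Ltf, all of neutrophils, rose by 2.85, 2.61, 1.51 and 1.41, while Alas2, of erythroid cells, was at -0.28 and not called. The sum of the 6 was 54.7 to 64.0 in mimic livers, 39.1 to 47.5 in scramble livers and 39.3 to 47.6 in PBS livers, and 0 of the 6 were at 0 in all libraries. Most of it was Alas2, with means of 33.6, 40.9 and 40.6 in the mimic, scramble and PBS groups, so it does not measure the neutrophil genes alone. The part of these cells in the values of Cd24a, Ezr and Sox9 was not tested.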

How the data were processed

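RNA of frozen liver was extracted, made into stranded mRNA libraries and read as paired ends of 48 bases, per the labels' protocols. The submitters' processing notes name the build mm10, edgeR 3.8.6 under R 3.1.2, bedtools 2.17.0, SAMtools 0.1.19 and Bowtie. Settings and annotation are not given in the sources used here. The deposited values are a scaled signal (scaled CPM): all values (100%) of all 11 columns were whole multiples of 1 step per library, to a tolerance of 1e-06, so that reads could be recovered.

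The members and all lists were chosen with earlier results of these data known. Values were taken as log2(value + 1), and limma 3.58.1 under R 4.3.3 fitted 3 group means with a trend of variance on level. P-values were adjusted by Benjamini and Hochberg's method over all 13636 genes, at 0.05, and the fit was tested on simulated data. Alternatives covered the pseudocount, filters, scaling, a replicate block, libraries left out and, on recovered reads, DESeq2 1.42.0 and edgeR 4.0.16. Of each list, up to 4 called genes with the smallest p and 2 of the most abundant not called are named, apart from 1 gene that is not reported here. Positions, transcripts and 3′ UTRs are from GENCODE M21 (GRCm38). Libraries of a group differed by more than sampling noise (chi-square per degree of freedom of at least 61.0).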

Additional observations from a re-analysis of the deposited data

Results flagged for a closer look

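Of 104 groups of 4 libraries tested for a sample far from the others, 3 had one, where chance flags about 1 in 20. None (0) of the 6 members was among them. Dsp was 19.6 scaled CPM in PBS replicate 2 and 30.4 to 32.2 in the other PBS libraries. Cd74 was 135 in PBS replicate 2 and 21.9 to 40.1 in the others. Yap1 was 31.7 in mimic replicate 1 and 26.2 to 26.7 in the other mimic libraries.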

How the results depend on the processing

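The signs of the log2 changes of the measured members in mimic against scramble and against PBS held under all alternatives run. Against scramble Krt23 ranged from -4.75 to -2.18, Krt8 from 0.21 to 1.0, Krt18 from 0.57 to 1.25, Sox9 from 0.28 to 0.72, Cd24a from 0.56 to 1.12 and Ezr from 0.52 to 1.12. In scramble against PBS 0 members were called in any. When only genes averaging 5 or more were tested, where Krt8 and Krt18 were the 2 members left with a positive change, in both mimic comparisons, and Krt23, Sox9, Cd24a and Ezr were left out, 2816 genes were called against scramble and 3273 against PBS. The lists then had 3 (Notch and YAP), 2 (aggregates), 2 (hepatocyte), 0 (neutrophil and erythroid) and 1 (gut and pancreas) called, as fewer genes were tested. With mimic replicates 2 and 3 alone, 2548 and 2894 genes were called, with 7 of the ezrin list, 0 hepatocyte and 1 gut and pancreas gene. Library totals gave 2 hepatocyte genes and 1 B cell gene, all called higher, where 1 hepatocyte gene was called lower as deposited, edgeR 3 hepatocyte genes, all lower, and DESeq2 8 (Notch and YAP), 8 (aggregates) and 6 (hepatocyte, 1 higher and 5 lower). In scramble against PBS 5 genes were called when these 2 groups were fitted alone, and 14 by DESeq2. With library totals the split against scramble was 5498 higher and 110 lower, against 2363 and 2000 as deposited, and Onecut2, Lats1, Fech, Hspa8, Rdx, Nf2, Dsg2 and Wwc1 changed sign, to 0.01, 0.10, 0.08, 0.11, 0.21, 0.28, 0.14 and 0.05; for the shifts other than those from testing fewer genes or libraries the cause was not tested. Leaving out 1 library at a time gave 2824 (without scramble replicate 1) to 4904 genes against scramble, 0 to 1 in scramble against PBS, 3 to 7 other bile duct genes, 2 to 7 aggregate genes, 1 to 3 hepatocyte genes and 1 to 3 gut and pancreas genes. The Krt8 to Krt18 ratio difference ranged from 0.041 to 0.121 in scramble minus PBS. Replicate numbers gave no general pairing of the libraries: 3 of 10 same-numbered pairs had deviations correlated above 0.1 (-0.28 to 0.26), and in 6 of 20 cases the best match had the same number. All 3 were pairs of replicate 3, at 0.24 for mimic and scramble, 0.26 for mimic and PBS and 0.12 for scramble and PBS. With the replicate block 3808 genes were called against scramble, against 4363 without it. Sox9 (17 to 90 reads) and Krt23 in the mimic group (9 to 17 reads) are limited most by depth.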

Other observations

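The genes whose pattern over the 11 libraries was most like that of a member are given as a description, by Pearson's r of log2(value + 1) over the 12180 genes left after taking out those averaging under 1 scaled CPM, the members and predicted genes (symbols of Gm and digits, or ending in Rik). For Krt23 they were Coq5 and Supv3l1, both of mitochondria, Eci1 and Acaa1b, enzymes of fatty acid oxidation, and Mgll, a lipase of monoglycerides, with r from 0.962 to 0.967. Acaa1b averaged 433 scaled CPM in mimic livers, 941 in scramble livers and 981 in PBS livers. For each of the 5 no mimic library reached the lowest control, which was so for 11.5% of all genes. The 5 were picked for following Krt23, which itself separates the groups, so nothing is read from this. For Ezr they were Mfge8, Aebp1, Stoml1, Ehd2 and Myl12a, with r from 0.971 to 0.979. Aebp1, a gene of matrix-making cells, averaged 2.12, 0.901 and 0.756 in the 3 groups in the same order. For Krt8 the nearest was Nlrp4e (r = 0.990), followed by Jak3, Hmgn1, Raet1e and Gstm4 at 0.955 to 0.969. All of these values share libraries and scaling.

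Among 14 genes of gut and pancreas, 4 were measured and 2 were called in mimic against scramble by limma. Fabp2, the intestinal fatty acid binding protein gene, averaged 31.9 ± 8.89 and 73.1 ± 14.1 scaled CPM (SD, n = 4 and 3), a log2 change of -1.20 that was -0.62 and not called with library totals. Tff1, a trefoil factor gene, rose by 0.38, a call lost without mimic replicate 3 or 4 or scramble replicate 3 (limma adjusted p = 0.052 to 0.13). Without mimic replicate 3 or scramble replicate 3, 1 gene was called in place of 2. Cela2a and Cela1 were not called, at 0.29 and -0.24, and Cela2a was called at 0.78 with library totals. With library totals 2 were called higher and 0 lower. The median of the 4 was 0.02 (0.49 with library totals), and their sum was 31.3 to 50.05 in mimic livers, 66.2 to 96.3 in scramble livers and 76.1 to 85.0 in PBS livers. Most of that sum was Fabp2.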
